A study of Homo sapiens with 3 samples.

Results

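Heat shock proteins and chaperonins are the protein-folding machines of the cell. The 87 rows examined here were chosen by gene symbol, from 32727 rows in all. They cover the small heat shock proteins (HSPB, 8 genes), the HSP70 family (HSPA, 15 rows) with its large relative HSPH1, the 3 HSP90 genes (HSP90AA1, HSP90AB1 and HSP90B1), the J-domain proteins (DNAJ, 44 genes), the mitochondrial pair HSPD1 and HSPE1, and the cytosolic chaperonin (CCT, 9 genes with TCP1). Another 5 rows are non-coding transcripts named after DNAJ genes. The symbol pattern itself matched 85 rows, of which HSPBAP1 was left out because its symbol ends like that of a pseudogene, and the 3 HSP90 genes were added because the classes to be described include them.

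The data came from droplet single-cell RNA sequencing of NCCIT, GCT27 and 2102EP, human lines of embryonal carcinoma (EC), driven towards cells resembling a yolk-sac tumor (YST). All cells stably carried the lenti-MPHv2 helper, a fusion that contains the activation domain of heat shock factor 1 (HSF1), and endogenous SOX17 was switched on with lenti-SAMv2. The cells then received heparin (1 µg/ml), FGF2 (25 ng/ml), CHIRON at 3 µM and 100 ng/ml of Activin A, renewed every 48 h until day 8. Each of the 3 libraries pooled 3 replicates of a line according to the labels, and no untreated library was part of the data. The label of the GCT27 sample gives GCT26 as its cell line, and the title was followed here.

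Chaperones bind unfolded stretches of other proteins and release them in cycles driven by ATP. HSP70 proteins work with J-domain partners that bring them clients and trigger ATP hydrolysis, HSP90 finishes the folding of kinases and receptors with the help of co-chaperones, and CCT is a double ring that encloses actin and tubulin. Heat shock factors bind heat shock elements in the promoters of many of these genes, whereas chaperones of the endoplasmic reticulum are under the unfolded protein response.

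The deposited values are 1 average for each of 14 clusters (numbered 0 to 13), in UMIs (counted molecules) per 10000 UMIs of a cell, pooled over the libraries. Because UMIs were counted at the 3′ end of transcripts, levels of different genes were compared without scaling by length. With 1 pooled value per cluster and no replicates there was no test, and every difference below is a description with no replicate check. The 20844 cells fell into clusters of 2808 (cluster 0) down to 42 cells (cluster 13). The 3 library codes in the cell table match no label, so no value could be tied to a cell line. A single code held 83.2%, 86.3% and 99.4% of the cells in clusters 9, 11 and 12, and there a library and a cluster cannot be told apart. The median UMI total per cell, recovered from genes seen once in a cluster and therefore weighted towards deeper cells, was 88786, 18045 and 14916 in clusters 11, 5 and 13 (lower quartile 2504 in cluster 5), against 21923 to 42092 in the other clusters. Ribosomal protein transcripts made up 22.4%, 22.7% and 28.8% of UMIs in clusters 5, 11 and 13 and 15.6% to 18.6% elsewhere. Some results are therefore also given with these 3 clusters, or cluster 13 alone, left out. Others are not, and a highest or lowest level in one of these clusters carries this limit. The EC marker POU5F1 was highest in cluster 6 (3.96), SOX17 reached 21.0 in cluster 0, and the YST markers FOXA2, AFP and APOA2 were at or below 0.0148 in every cluster. The other 4 genes of the YST list were detected, with GPC3 at 9.78 in cluster 9 and 5.10 in cluster 12, APOA1 at up to 0.961 in cluster 0, and GATA6 and GATA4 at up to 0.633 and 0.157 in cluster 8.

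The promoters are shown first, since the heat shock element and the endoplasmic reticulum stress element are the best known switches of these genes. Of the 87 rows, 77 had at least 1 promoter window in the RefSeq table for GRCh38.p14 (250 bases before to 50 after the start). The 8-base heat shock element GAANNTTC, which reads the same on both strands, lay in 19 of these 77 genes (24.7%), against 8.21% of all 27305 genes in the table. A longer element of 3 units, which contains the 8-base form, lay in 7 of 77 (9.09%, against 0.608% of all genes), namely HSP90AA1, HSP90AB1, HSPA8, HSPD1, DNAJA1, DNAJB6 and HSPA6. The endoplasmic reticulum stress element lay in HSPA5 and HSP90B1 (2.60%, against 0.0916%). In the stretches printed here the element is in capitals. They stop before the start, and the elements of HSPA8, HSPD1 and HSP90B1, which fall into exons of alternative transcripts, are shown with few flanking bases. First come the genes with the 3-unit element:
HSP90AA1 (chr14:102087080-102087172, minus strand): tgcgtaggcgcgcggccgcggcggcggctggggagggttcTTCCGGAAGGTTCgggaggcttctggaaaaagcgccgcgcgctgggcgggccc
HSP90AB1 (chr6:44247791-44247865, plus strand): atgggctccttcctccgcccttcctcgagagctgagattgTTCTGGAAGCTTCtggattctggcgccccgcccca
HSPA8 (chr11:123062171-123062199, minus strand): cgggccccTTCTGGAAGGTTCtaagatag
DNAJB6 (chr7:157336833-157336925, plus strand): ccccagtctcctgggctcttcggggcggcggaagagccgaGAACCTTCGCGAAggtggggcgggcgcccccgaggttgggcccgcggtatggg
HSPD1 (chr2:197500060-197500088, minus strand): attTTCTGGAAAGTTCTGGAAccgagcga

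Next come 5 genes with the 8-base element only, of which CCT2 and HSPB1 were well expressed in these cells and HSPA1A was nearly silent:
HSPA1A (chr6:31815397-31815484, plus strand): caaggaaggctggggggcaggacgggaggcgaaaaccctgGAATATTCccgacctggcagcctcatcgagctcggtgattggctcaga
HSPA1B (chr6:31827593-31827680, plus strand): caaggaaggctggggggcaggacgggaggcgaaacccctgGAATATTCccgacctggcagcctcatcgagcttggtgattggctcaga
HSPB1 (chr7:76302451-76302538, plus strand): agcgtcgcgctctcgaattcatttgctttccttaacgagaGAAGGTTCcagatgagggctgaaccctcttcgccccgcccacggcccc
HSPB8 (chr12:119178803-119178890, plus strand): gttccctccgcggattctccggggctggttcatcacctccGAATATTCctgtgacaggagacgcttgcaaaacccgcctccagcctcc
CCT2 (chr12:69585760-69585847, plus strand): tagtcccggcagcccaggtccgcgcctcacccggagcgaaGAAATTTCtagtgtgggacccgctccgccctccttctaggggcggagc

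The pair with the endoplasmic reticulum stress element encodes the 2 most abundant members of that compartment:
HSPA5 (chr9:125241383-125241449, minus strand): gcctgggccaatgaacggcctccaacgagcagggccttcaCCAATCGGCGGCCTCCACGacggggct
HSP90B1 (chr12:103930316-103930344, plus strand): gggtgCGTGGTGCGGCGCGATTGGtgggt

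A sequence match describes letters in a window, not a bound site. HSPA1A and HSPA1B shared 86 of the 88 printed bases, and their transcripts are so alike that reads can be split between them or lost.

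Of the 87 rows, 58 averaged at least 0.1 UMIs per 10000 over the clusters, 17 stood at 1 or more in every cluster, and 16 stayed below 0.02 in every cluster. Members together took from 0.639% of all UMIs in cluster 13 and 1.01% in cluster 11 to 1.40% in cluster 3. Over the 58, the ratio of the highest to the lowest cluster had a median of 1.36 on the log2 scale (pseudocount 0.1), beside 1.31 over the 9917 genes that passed the same minimum. Without cluster 13 these medians were 1.02 and 1.01, so the members as a whole varied about as much as other genes.

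A level at least 2-fold above the mean of the other 13 clusters occurred in 1 of 812 member and cluster pairs (0.123%, against 1.34% of the pairs over all genes). A level at least 2-fold below it occurred in 30 (3.69%, against 4.15%). Cluster 13 alone held 21 of these 30 (36.2% of the members, against 29.1% of all genes there). Mitochondrial transcripts made up 6.10% of UMIs in cluster 13, against 2.47% to 3.51% elsewhere, and their part in these calls was not tested. The others were DNAJC1 and HSP90B1 in cluster 5 (5.2% of all genes), HSPB8 in cluster 6 (1.68%), HSPA4, HSPA9, HSPA5 and CCT8 in cluster 11 (6.14%), and DNAJC19 and HSPH1 in cluster 12 (3.79%). The single higher pair was HSPB8 in cluster 9 (3.24% of all genes). This split depends on the scaling. Scaled by the median of ratios between genes, 7 pairs were higher and 7 lower, beside 2% and 2.53% of the pairs over all genes. The median of all genes in cluster 13 was -0.61 as deposited and -0.06 with that scaling.

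**Figure D1:**
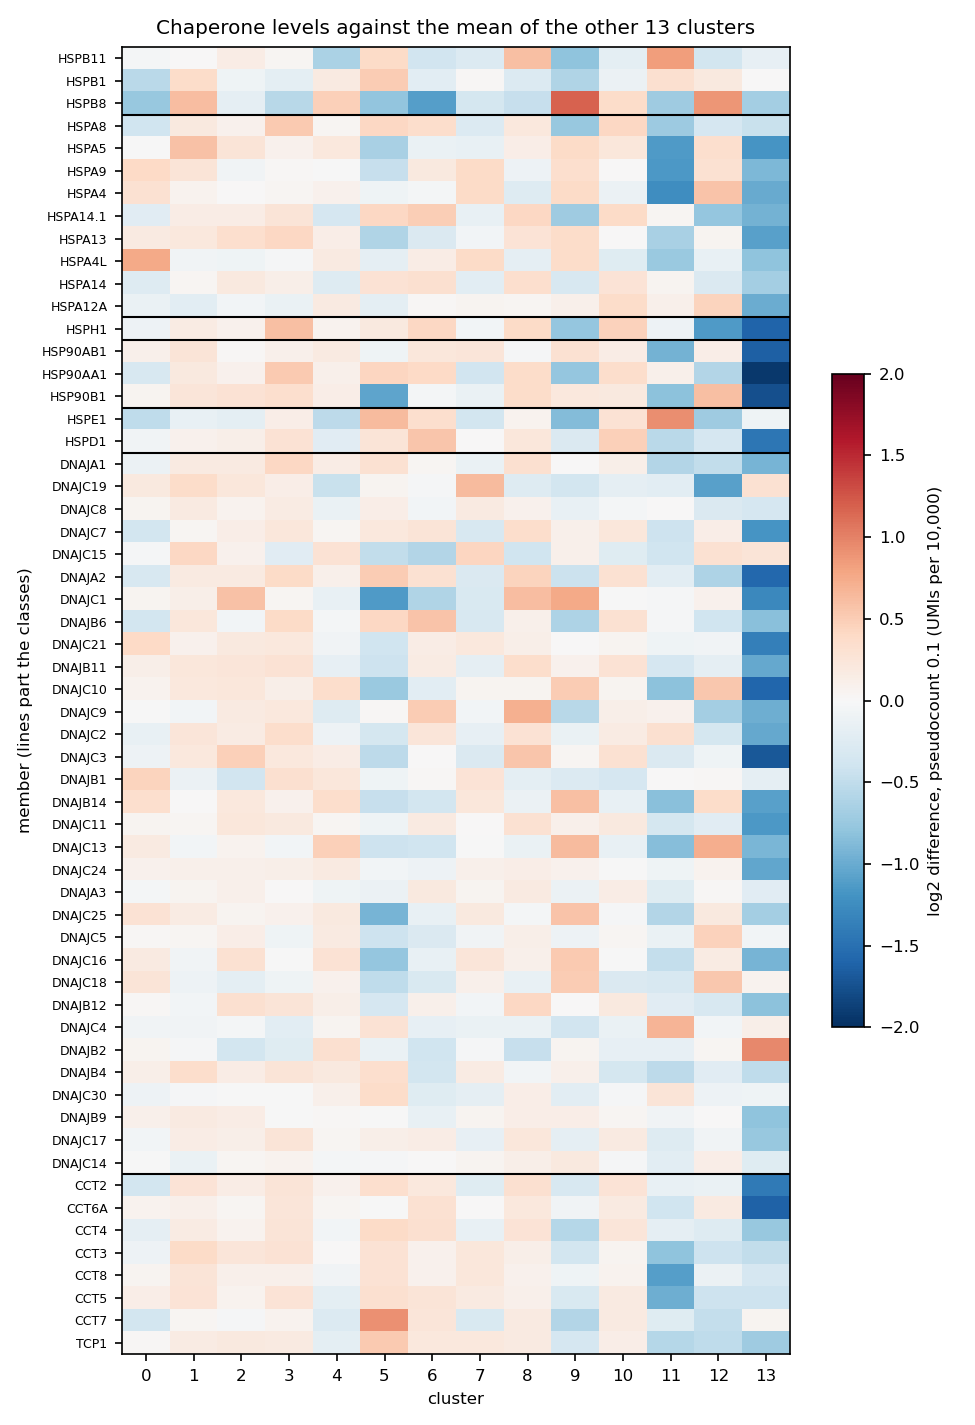
Heat map of the 58 members above the minimum (rows, by class and falling mean) in the 14 clusters (columns). Colour gives the log2 difference from the mean of the other clusters, cut at -2 and 2, with 1 pooled value per cell of the map. Cluster 13 is blue for most rows, and cluster 11 is blue for HSPA5, HSPA9, HSPA4 and CCT8 while HSPE1 and HSPB11 are red there.

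Summed over each class, HSP90 ran from 10.8 UMIs per 10000 in cluster 13 to 43.9 in cluster 3, which is 4.07-fold, and 1.64-fold without cluster 13. CCT ran from 14.6 in cluster 13 to 30.9 in cluster 5, or 1.71-fold without cluster 13. The median log2 difference of the CCT genes in cluster 13 was -0.60 as deposited and 0.15 when scaled by the median of ratios. HSPA ran from 6.33 in cluster 11 to 14.1 in cluster 1. The DNAJ sum varied least, from 17.2 to 30.3, and from 22.4 upwards without cluster 13. The HSPB sum was highest in cluster 11 (4.51, of which 2.79 was HSPB11) and lowest in cluster 9 (2.31). HSPB1 was 1.61 in cluster 11 and highest in cluster 5 (1.82). HSPD1 and HSPE1 together summed to 22.5 in cluster 5 and 11.2 in cluster 9. No cluster was lowest for every class, and cluster 11 was high for the HSPB sum, most of it HSPB11, and low for HSPA and HSP90.

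**Figure D2:**
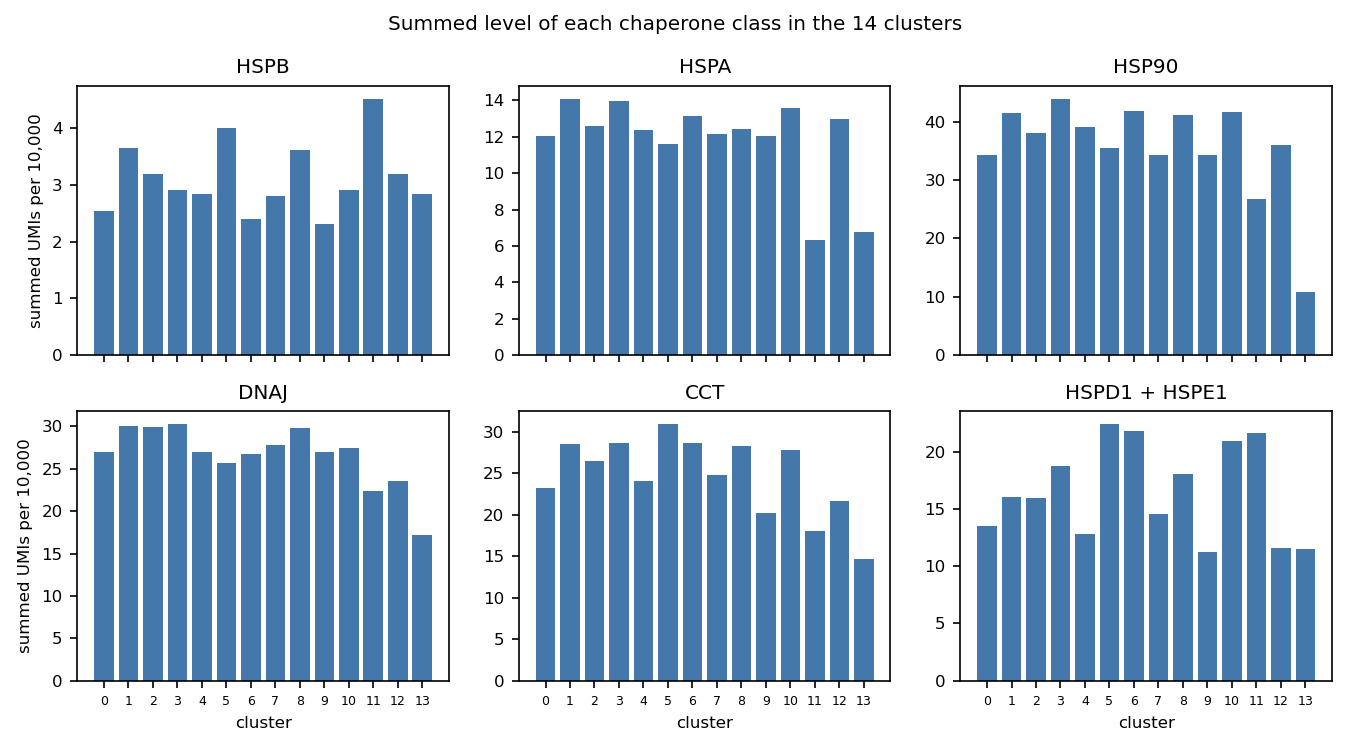
Bars give the summed level of each class (UMIs per 10000, from 0) in the 14 clusters, 1 pooled value each without an error. HSP90 lies between 34.2 and 43.9 in every cluster except 11 (26.8) and 13 (10.8).

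The cytosolic HSP90 genes were the most abundant members. HSP90AB1 (chr6:44246166-44253888), usually described as the constitutive form, ranged from 4.74 in cluster 13 over a median of 15.4 to 17.4 in cluster 9. Apart from clusters 11 (7.65) and 13 it stayed between 13.5 and 17.4. HSP90AA1 (chr14:102080742-102139699), the stress-inducible form, was 11.4, 15.9, 14.8, 19.5, 14.9, 18.4, 18.1, 10.8, 17.8, 8.39, 17.6, 14.9, 9.56 and 3.80 in clusters 0 to 13. It was therefore low in clusters 0, 7, 9, 12 and 13, and highest in cluster 3, where the G2/M gene TOP2A was also highest (4.83, against at most 2.46 elsewhere). The ratio of HSP90AA1 to HSP90AB1 ran from 0.482 in cluster 9 and 0.613 in cluster 12 to 1.37 in cluster 5 and 1.94 in cluster 11. Outside clusters 5, 11 and 13 it was at most 1.28, in cluster 3. The order of the paralogs was thus opposite at the ends of this range.

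HSP90B1 (chr12:103930107-103953931), the HSP90 of the endoplasmic reticulum, followed another order. It was highest in cluster 12 (10.9) and lowest in clusters 13 (2.24), 5 (3.67) and 11 (4.31), with a median of 8.25. In cluster 5 it lay below the mean of the others by -1.05 on the log2 scale while HSP90AA1 lay above by 0.43. With median-of-ratios scaling these differences were -0.75 and 0.71.

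**Figure D3:**
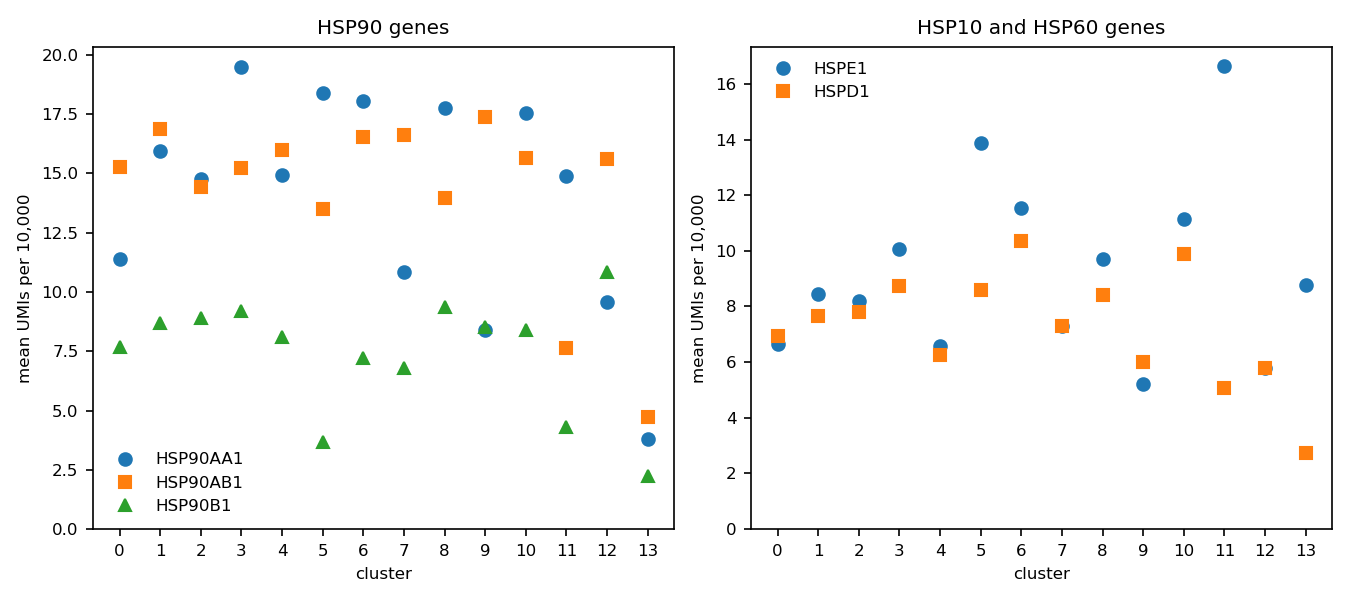
Left, the 3 HSP90 genes, and right, HSPE1 and HSPD1, in mean UMIs per 10000 (from 0) in each of the 14 clusters, 1 pooled value per point. HSP90AB1 is nearly level outside clusters 11 and 13 while HSP90AA1 moves between 8.39 and 19.5, and HSPE1 stands clear of HSPD1 in clusters 5, 11 and 13.

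Across the 14 clusters, Spearman's correlation between HSP90AA1 and HSP90AB1 was -0.095. Correlations here are descriptions over 14 points that share libraries and the scaling to 10000, and the median over all pairs of genes was 0.134. Of the HSP90 co-chaperones, HSP90AA1 was closest to AHSA1 (0.965), which stimulates the HSP90 ATPase, STIP1 (0.930), which bridges HSP70 and HSP90, FKBP4 (0.903) and PTGES3 (0.873). These correlations were 0.964, 0.945, 0.891 and 0.855 without clusters 5, 11 and 13. The members DNAJB6 (0.960), CCT4 (0.943) and DNAJA2 (0.934) were about as close to HSP90AA1 as these co-chaperones. HSP90AB1 had values of -0.051, -0.055, -0.116 and 0.064 with AHSA1, STIP1, FKBP4 and PTGES3, which were picked for their closeness to HSP90AA1. Of the co-chaperones it was itself closest to PPID (0.521) and FKBP5 (0.367). Without clusters 5, 11 and 13 those 2 values were 0.282 and -0.309. UNC45A went the other way from HSP90AA1 (-0.688). FKBP4, an immunophilin that binds HSP90 in steroid receptor complexes, showed the widest range of the group, from 0.711, 0.714 and 0.735 in clusters 13, 12 and 9 to 4.68 and 4.87 in clusters 5 and 6.

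Among the HSP70 genes, HSPA8 (chr11:123057489-123063230), the constitutive cytosolic form that also has many processed pseudogenes, had the highest level. It ran from 2.51 in cluster 9 and 2.56 in cluster 11 over a median of 4.34 to 5.82 in cluster 3. Its correlation with HSP90AA1 was 0.877, or 0.936 without clusters 5, 11 and 13. HSPH1, a nucleotide exchange factor for HSP70, had a correlation of 0.916 with HSP90AA1 (0.945 without these clusters) and ran from 0.242, 0.366 and 0.491 in clusters 13, 12 and 9 to 1.34 in cluster 3. Cluster 3 was thus the highest for all 3 genes. For HSPA8, cluster 12 (3.32) lay above clusters 0, 9, 11 and 13.

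A second group of HSP70 genes did not share that order. HSPA4 (chr5:133052013-133106449), another exchange factor, was highest in cluster 12 (3.13) and lowest in cluster 11 (0.895), with a correlation of -0.363 with HSP90AA1, or -0.827 without clusters 5, 11 and 13. HSPA9 (chr5:138553756-138575675), the mitochondrial HSP70, ran from 0.965 in cluster 11 to 2.80 in cluster 0, with a median of 2.19. HSPA5 (chr9:125234853-125241382), the HSP70 of the endoplasmic reticulum, ran from 0.971 in cluster 13 and 1.01 in cluster 11 to 3.27 in cluster 1. HSPA4, HSPA9 and HSPA5 were each more than 2-fold below the mean of the other clusters in cluster 11, by -1.23, -1.14 and -1.13 on the log2 scale, beside a median of -0.31 over all genes. Scaled by the median of ratios these differences were -0.88, -0.79 and -0.76, which is short of 2-fold. HSPA5 and HSP90B1, the pair with the endoplasmic reticulum stress element, had a correlation of 0.789, or 0.573 without clusters 5, 11 and 13.

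The remaining HSP70 genes were low. HSPA14 is listed in 2 rows, with means of 0.400 and 0.124, and HSPA13, an HSP70 of the endoplasmic reticulum, averaged 0.227. HSPA4L, a relative of HSPA4 known from testis, was highest in cluster 0 (0.301) and lowest in clusters 13 (0.0485) and 11 (0.0537). HSPA12A ran from 0.0134 to 0.190.

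HSPD1 (HSP60) and HSPE1 (HSP10) form the chaperonin of the mitochondrial matrix and are transcribed in opposite directions on chromosome 2. The RefSeq start of HSPD1 nearest to HSPE1, at position 197500274, and the HSPE1 start taken here, at 197500379, have 104 bases between them. The HSPD1 element printed above lies before another start of that gene, and downstream of the start at 197500274. It also lies upstream of the HSPE1 start taken here, beyond the 250 bases searched, so HSPE1 was counted as having no element. HSPE1 was 6.63, 8.46, 8.20, 10.1, 6.59, 13.9, 11.5, 7.28, 9.71, 5.22, 11.1, 16.6, 5.80 and 8.77 in clusters 0 to 13. HSPD1 ran from 2.72 in cluster 13 and 5.08 in cluster 11 over a median of 7.47 to 10.3 in cluster 6. The ratio of HSPE1 to HSPD1 lay between 0.869 and 1.16 in 11 clusters, and was 1.61, 3.28 and 3.22 in clusters 5, 11 and 13. The correlation between the pair was 0.468 over all clusters and 0.982 without these 3. Both genes have processed pseudogenes in the genome, so the absolute levels are uncertain.

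Only 3 of the 8 small heat shock proteins passed the minimum. HSPB11, a component of cilia transport better known as IFT25, was highest in clusters 11 (2.79) and 8 (2.39) and lowest in cluster 9 (0.905). HSPB1 (HSP27, chr7:76302673-76304295), which holds unfolded proteins in solution, ran from 0.838 in cluster 9 over a median of 1.25 to 1.82 in cluster 5. HSPB1 was found with at least 1 UMI in 85.8% of cluster 1 (2782 cells) but 35.9% of cluster 5 (1798 cells), although its average was higher in cluster 5, where cells were shallower.

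HSPB8 (chr12:119171555-119224855), the partner of BAG3 in chaperone-assisted autophagy, had the widest range on the log2 scale of the members that passed when cluster 13 was left out. Its levels were 0.562, 0.456, 0.369, 0.333 and 0.303 in clusters 9, 12, 1, 4 and 10, and 0.183 or less in the other 9, down to 0.0540 in cluster 6. The range was 10.4-fold. The log2 difference was 1.18 in cluster 9 and -1.10 in cluster 6. At least 1 HSPB8 UMI was present in 51.1% of cluster 9 cells and 61.1% of cluster 12 cells. In these 2 clusters the immediate early genes FOS (3.70 and 2.68) and EGR1 (2.40 and 2.10) were also highest, and their part in the HSPB8 level was not tested. BAG3 itself ranged only from 0.154 to 0.336.

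Of the 44 DNAJ genes, 32 passed the minimum. DNAJA1, the main J-domain partner of cytosolic HSP70, had the highest mean and ran from 1.82 in cluster 13 and 2.32 in cluster 11 to 4.52 in cluster 3. DNAJA2 ran from 0.516 in cluster 13 and 1.07 in cluster 12 to 2.31 in cluster 5. DNAJC8, a nuclear protein linked to splicing, was nearly level (2.31 to 3.28), as was DNAJA3 of the mitochondria (0.229 to 0.335). DNAJB1, a classical stress-inducible partner of HSP70 that was picked for mention after its values were seen, stayed between 0.349 and 0.664.

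DNAJC19 (chr3:180983697-180989774), of the mitochondrial import motor, ran from 1.48 in cluster 12 over a median of 3.18 to 4.73 in cluster 7. DNAJC15, its relative in the same membrane, ran from 1.15 in cluster 6 to 2.29 in cluster 7. DNAJC1, a membrane protein of the endoplasmic reticulum, ran from 0.577 in cluster 13 and 0.651 in cluster 5 to 2.45 in cluster 9. DNAJC3, DNAJC10 and DNAJB11, partners of HSPA5, were each lowest in cluster 13 (0.146, 0.176 and 0.438), and DNAJC3 was highest in cluster 8 (0.973) and DNAJC10 in cluster 12 (1.01). DNAJC9, a histone chaperone, was highest in cluster 8 (1.11) and cluster 6 (0.969) and lowest in clusters 13 (0.309) and 12 (0.395). The replication gene PCNA was also highest in clusters 6 (1.26) and 8 (1.09). Further DNAJ genes with high means were DNAJC7 (0.749 to 2.19) and DNAJB6 (0.667 to 1.81), and DNAJC21 (0.333 to 1.28) and DNAJB14 (0.164 to 0.691) were also among the widest ranges. The other members 2-fold lower in cluster 13 were DNAJC2, DNAJC11 and DNAJC24, at 0.288, 0.120 and 0.111.

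All 8 subunits of the CCT ring were expressed in every cluster. CCT2 was the highest (median 5.34), followed by CCT6A (4.47), CCT4 (3.90), CCT3 (3.05), CCT5 (2.78), CCT8 (2.72), CCT7 (1.82) and TCP1 (1.77). CCT5 and CCT8, and likewise CCT7 and TCP1, were too close to be ordered without replicates. The ring holds each subunit in equal number, while the mRNA of the highest subunit exceeded that of the lowest by 2.40-fold in cluster 13 to 4.27-fold in cluster 12. Pairs of subunits had a median correlation of 0.677 over the clusters and 0.636 without clusters 5, 11 and 13, beside 0.134 and 0.028 for all genes.

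The make-up of the CCT mRNAs was least like the rest in clusters 11 and 13. CCT7 made up 5.94% to 7.47% of the subunit UMIs in 11 clusters, but 10.7%, 8.55% and 12.9% in clusters 5, 11 and 13. CCT8 made up 6.68% in cluster 11, beside a median of 10.4%, and its level there was 1.20, against 2.07 or more elsewhere. CCT2 made up 24.9% in cluster 11 and 12.96% in cluster 13. TCP1, the founding subunit, kept within 5.23% and 7.55%. The testis-type subunit CCT6B did not pass the minimum and reached 0.118 in cluster 9.

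**Figure D4:**
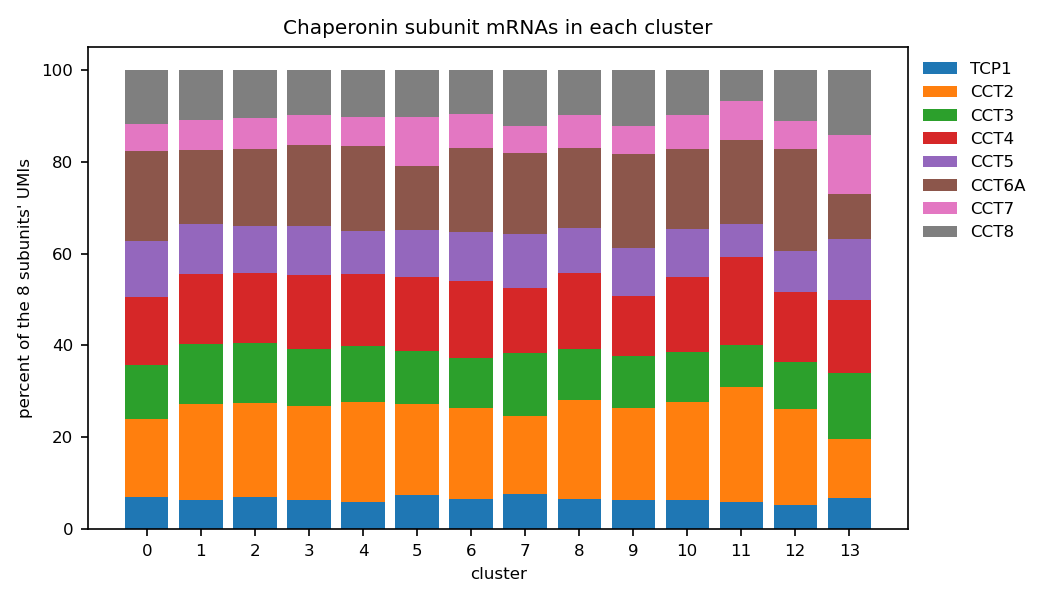
Stacked bars show the share of each of the 8 CCT subunits in their summed UMIs (percent, adding to 100) in the 14 clusters. The shares are alike in most clusters, and CCT7 is wider in clusters 5, 11 and 13.

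HSPA1A, HSPA1B and HSPA6, heat-inducible members of the HSP70 family, were low. HSPA1A (chr6:31815543-31817946) reached 0.0995 in cluster 12, corresponding to about 55 UMIs over its 180 cells, and was at or below 0.00675 in the other clusters. HSPA1B ranged from 0.0240 in cluster 13, an estimated 1.5 UMIs, to 0.119 in cluster 1. HSPA6 (chr1:161524540-161526894) never exceeded 0.00109 although its promoter holds the 3-unit element. HSPA1A, HSPA1B and HSPA6 fall outside the rule for named genes and were picked after their values were seen. HSPB2, HSPB3, HSPB6, HSPB7 and HSPB9, known mostly from muscle, heart or testis, were at or below 0.0109, as was the testis gene DNAJB8. HSF1 itself ranged from 0.285 in cluster 9 to 0.573 in cluster 11. Whether part of its UMIs came from the helper was not tested.

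Members with the 3-unit element had a median level of 4.16 UMIs per 10000, and 6 of 7 passed the minimum. Those with the 8-base element alone had a median of 0.0737, with 5 of 12 above the minimum. The 58 without an element in the window had a median of 0.237, with 41 above the minimum. Levels ranged from 0.000203 to 14.2 with the 3-unit element and from 0.00131 to 4.96 with the 8-base element alone, so genes with and without measurable expression share these letters.

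**Figure D5:**
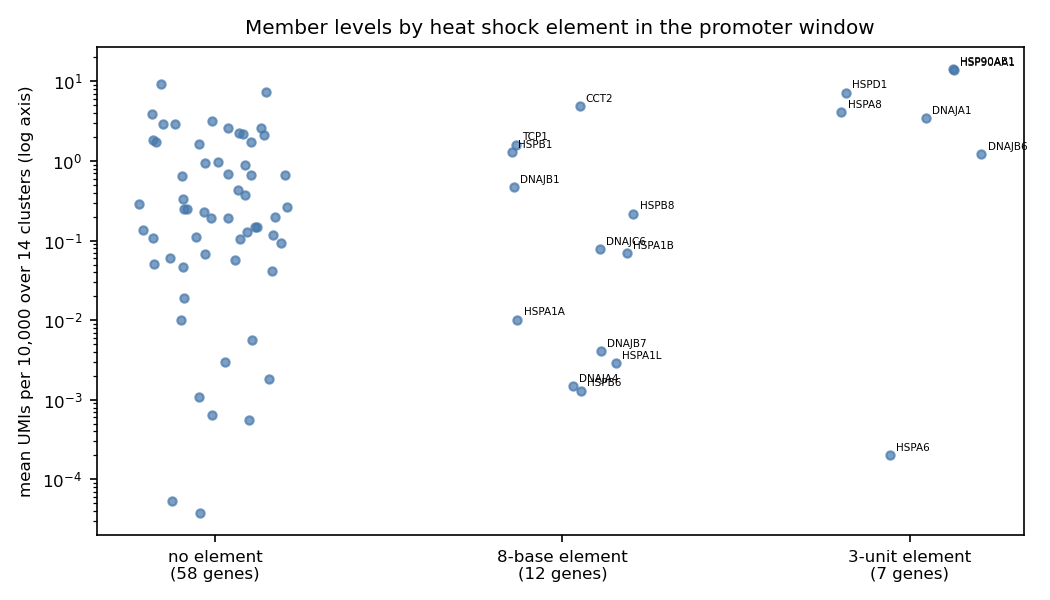
Each point is a member with a promoter window, by heat shock element, and the log axis gives its mean level over the 14 clusters in UMIs per 10000. HSP90AA1 and HSP90AB1 lie at the top of the 3-unit group (13.98 and 14.24) and HSPA6 at its bottom (0.000203). Horizontal position within a group is arbitrary.

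The list of 68 co-chaperones, folding enzymes and stress genes that work with these proteins was described in the same way. Of 67 genes above the minimum, 7 pairs of gene and cluster were 2-fold higher (0.746%, against 1.34% over all genes) and 24 were 2-fold lower (2.56%, against 4.15%). Of the 24, 11 lay in cluster 13. They were 11 of the 67 genes, a smaller share than the 29.1% of all genes that were 2-fold lower there. The 9 prefoldin and CCT partner genes had no lower pair and 2 higher ones of 126 (1.59%, against 1.34% over all genes). These were PFDN2 (5.86) and PFDN5 (17.4) in cluster 13, where the share of all genes 2-fold higher was not computed. The 9 mitochondrial genes had no pair past 2-fold in either direction.

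Among the 19 genes of the endoplasmic reticulum, DDIT3 (CHOP), a transcription factor of the stress response, had the widest range. Its highest levels were 4.96, 3.36 and 3.03, in clusters 13, 9 and 12, and its lowest were 0.492 and 0.562, in clusters 11 and 6. HSPA5, the usual target of the same response, was 0.971 in cluster 13 and 2.86 in cluster 9, so DDIT3 and HSPA5 were both high in cluster 9 but parted in cluster 13. The log2 differences in cluster 13 were 1.72 for DDIT3 and -1.18 for HSPA5, beside a median of -0.61 over all genes. Scaled by the median of ratios they were 2.55 and -0.41, beside -0.06. The stress sensor EIF2AK3 was lowest in clusters 13 (0.0302, resting on few UMIs) and 5 (0.0817). PDIA3, a folding enzyme, was lowest in clusters 13 (0.653) and 11 (0.857). Of the ubiquitin and proteasome genes, PSMD11 went from 0.615 in cluster 13 to 3.53 in cluster 5, and the autophagy receptor SQSTM1 from 1.38 in cluster 6 to 5.07 in cluster 1. CHORDC1, an HSP90 co-chaperone, ran from 0.270 in cluster 13 to 1.19 in cluster 3.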

How the data were processed

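Libraries were made with the 3′ kit of the droplet system, and the authors counted UMIs with Cell Ranger 7.0 on GRCh38, removed low-quality cells and doublets, and clustered cells with Seurat 4.1.1. Those sources name no annotation release. The deposited averages are UMIs per 10000 for each cluster, and every column summed to 10000. The deposited cell table holds counts of cells per cluster and library code, and the deposited marker table gives, as a fraction, the share of cells with a UMI for genes that the authors found higher in a cluster. Its fold changes and p-values, the authors' own comparisons, were not used. Whether libraries shared cell barcodes could not be examined from averages.

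Differences were computed in Python 3.11.15 (pandas 2.3.3) as log2 of a cluster's value over the unweighted mean of the others, both plus 0.1, for genes with a mean of at least 0.1. A difference of 2-fold was called without a test. UMI totals were recovered as 10000 divided by the value times the number of cells, where this was whole within 1e-05. The code that makes these calls was checked on simulated averages, where it recovered most but not all of the planted changes. Rows were taken by symbol, but the gene family and the lists were chosen with earlier results of these data known. Named genes were all HSPB, HSPA, HSP90, HSPD1, HSPE1 and HSPH1 members above the minimum, all CCT genes, the 8 highest and 8 most variable DNAJ genes, members past 2-fold, HSF1 and the 8 most variable pathway genes, of which 1 is not reported here. Promoters came from RefSeq and gene positions from GENCODE, both on GRCh38. Besides the motifs described, an ATF4 site (TGATGNAAT) lay in 1 of 77 member genes and TATAAA in 12.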

Additional observations from a re-analysis of the deposited data

How the results depend on the processing

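Of 2032 values recomputed under 12 alternatives, 1936 stayed within a factor of 1.5, and none that had been called turned its sign. For log2 values the factor applied to the fold difference they stand for, so small ones could change sign within it. The HSP90 median in cluster 5, for example, was -0.08 as deposited and 0.22 with median-of-ratios scaling. The cause of the 96 that moved was not tested. Over all genes, 2% of pairs were higher and 2.53% lower with median-of-ratios scaling. Scaled without ribosomal and mitochondrial genes, these shares were 1.64% and 3.88%. The shares over all genes were not computed for the other alternatives, so those counts do not show a change particular to the members. The count of pairs 2-fold higher (1) became 4 with a pseudocount of 0.01, 0 with a pseudocount of 1, 0 with a minimum of 0.5, 7 with median-of-ratios scaling, 3 when scaled without ribosomal and mitochondrial genes, 2 against the median of the other clusters, and 0 without clusters 9, 11 and 12, each mostly of 1 code. Pairs 2-fold lower (30) became 51 and 6 with these pseudocounts, 7 with median-of-ratios scaling, 9 without clusters under 200 cells and 3 without clusters 5, 11 and 13. Pathway pairs higher (7) became 3 with a pseudocount of 1, 19 with median-of-ratios scaling, 1 without clusters under 200 cells, 3 without clusters 5, 11 and 13 and 4 without clusters 9, 11 and 12, and pairs lower (24) became 4, 10 and 5 with a pseudocount of 1, without the small clusters and without clusters 5, 11 and 13.

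With a pseudocount of 1 the spread was 0.62 for HSPB, 0.44 for HSPA and 0.38 for DNAJ, and the class median in cluster 13 became -0.28 for HSPA and -0.23 for DNAJ. With no minimum the spread of HSPB was 0.10 and its median in cluster 9 was -0.00827. With median-of-ratios scaling the medians in cluster 13 were 0.55 for HSPB, -0.96 for HSP90 and 0.15 for CCT, against -0.16, -1.76 and -0.60 as deposited, so that those of HSPB and CCT changed sign. With that scaling the spread of HSP90 was 1.39 and its summed range 2.32-fold. Without clusters under 200 cells the HSP90 spread was 1.21 and its range 1.64-fold. Without clusters 5, 11 and 13 the spreads were 0.68 for HSPA, 0.67 for HSP90, 0.67 for DNAJ and 0.67 for CCT, and the summed ranges 1.17-fold for HSPA and 1.28-fold for HSP90.

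Leaving out a library was not run, because no column is tied to one. No paired analysis was possible because the averages pool the libraries. The views without cluster 13, and all correlations, were added after seeing the data.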

Other observations

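The 5 non-coding rows were all below the minimum. The divergent transcript DNAJC3-DT reached 0.0709 UMIs per 10000 in cluster 9, and DNAJC27-AS1 reached 0.0658 in cluster 11. The sources name the 3′ kit and Cell Ranger 7.0 but do not state how strand was handled. DNAJC27-AS1 and its sense partner DNAJC27 were counted as separate rows, at 0.0658 and 0.0588 in cluster 11 and 0.0480 and 0.177 in cluster 9. On the deposited scale DNAJB2, a J-domain protein of neurons, was the only DNAJ gene above the minimum with its highest level in cluster 13 (0.355, against 0.205 or less elsewhere). Scaled by the median of ratios, DNAJC19 and DNAJC15 were also more than 2-fold higher there, by 1.09 and 1.05 on the log2 scale. The share of all genes 2-fold higher in cluster 13 (42 cells) with that scaling was not computed. Over all clusters it was 2%. The wide HSP90AA1 range and the narrow HSP90AB1 range were seen in the 11 clusters other than 5, 11 and 13 as well, where their correlation was -0.364.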
